A study of Mus musculus and Homo sapiens with 12 samples.

Results

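SIRT7 is a nuclear sirtuin that removes acetyl groups from proteins, among them lysine 18 of histone H3 (H3K18Ac). Its binding sites were sought by ChIP-seq, the sequencing of DNA pulled down with an antibody to SIRT7, in the human leukaemia line K562, which yielded a list of 44319 peaks on human build hg19. The peaks near chromosome ends were those of chromosomes 1 to 22 whose midpoint lay below 2 Mb, or within 2 Mb of the last base of the last peak of the chromosome. The p-arm ends of the acrocentric chromosomes 13, 14, 15, 21 and 22 were left out, so that 39 ends were covered, 17 of p arms and 22 of q arms. They held 1021 of the 40790 peaks of chromosomes 1 to 22 (2.50%), of which 477 lay at p-arm ends and 544 at q-arm ends. The remaining 39769 peaks of these chromosomes, called the rest, served for comparison.

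The series held 12 samples in 7 groups, and the list is recorded under replicate 1 of the wild-type K562 SIRT7 group, which has 2 samples. A second list, of wild-type mouse embryonic fibroblasts (MEFs) of strain 129s2 taken at 14.5 days, was used for 1 comparison of distal chromosome ends. Samples of H3K18Ac and of input were not analysed here. The growth protocol gives the catalogue number CCL-121 for the K562 cells, which in that collection belongs to a fibrosarcoma line, and a peak list holds no marker that could show which line was used. Read depth and the copy number of each chromosome part are unknown from a peak list, and neither was examined. With 1 list for the group there is no test of the cells, and each bracket holds a 95% interval for counting error alone, which treats peaks as independent. Peaks were spread less evenly than that, as given below, so the brackets are narrower than the variation between places.

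Chromosome ends are capped by telomeres, arrays of a short repeat bound by a protective protein complex. Inward of them lie subtelomeres, patchworks of segments that have been duplicated between the ends of different chromosomes, followed on many arms by chromatin rich in genes. SIRT7 is known for its place in the nucleolus and, in the study from which the list comes, for its link to L1 retrotransposons and the nuclear lamina. In hg19 most p-arm sequences begin after a placeholder for the telomere, so peaks can first appear where the sequence does. Without an hg19 genome or annotation in use, each peak is named by its position and no sequences or genes are given.

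The outer 2 Mb held slightly fewer peaks than the rest of the same chromosomes, but this total joined a dense outermost zone to a sparser inner one. The density was 13.1 peaks per Mb (12.3 to 13.9) at the ends, where the rest of each chromosome would have given 14.02 per Mb, a ratio of 0.934 (0.877 to 0.993). The upper bound passed 1 when any of 6 single chromosomes was left out (2, 12, 13, 16, 21 or 22), as in 0.949 (0.891 to 1.01) without chromosome 16, and with a window of 1 Mb the ratio was 1.05 (0.969 to 1.14). In the outermost 200 kb the density was 24.7 per Mb (21.4 to 28.5), from 193 peaks against the 109 that the rest would give, a ratio of 1.76 (1.52 to 2.03). From 0.2 to 2 Mb it was 11.8 per Mb (11.01 to 12.6), a ratio of 0.841 (0.785 to 0.901), with 828 peaks against 984. The outermost 200 kb was thus 2.10 times (1.78 to 2.46) as dense as the 1.8 Mb next to it.

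The p-arm and q-arm ends shared this form. At p-arm ends the outermost 200 kb held 89 peaks, 26.2 per Mb (21.02 to 32.2), and a ratio of 1.84 (1.48 to 2.26) to the rest. At q-arm ends it held 104 peaks, 23.6 per Mb (19.3 to 28.6), and a ratio of 1.70 (1.39 to 2.07). Over the whole 2 Mb the p-arm ends, with 14.03 peaks per Mb, did not differ from the rest beyond counting error (ratio 0.986, 0.900 to 1.08), whereas the q-arm ends, with 12.4 per Mb, lay below it (0.892, 0.818 to 0.970), though not beyond counting error among peaks with a score of at least 100 (0.931, 0.821 to 1.05). The density of p-arm ends was 1.13 times (1.001 to 1.29) that of q-arm ends, a difference at the edge of counting error. Distances at p-arm ends ran from position 1 and at q-arm ends from the last peak, so the windows were set differently. These 2 sets also do not cover the same chromosomes, because the 5 acrocentric chromosomes add q-arm ends only. Their ratios to the rest were 0.451 (13q), 0.708 (14q), 1.23 (15q), 0.694 (21q) and 0.418 (22q), so the arms are not compared like for like.

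In steps of 200 kb the fall came between the first and the second step. The first step had 24.7 peaks per Mb and the second 12.9 (10.5 to 15.7), and the 9 steps from 0.2 to 2 Mb ran between 8.97 and 12.9 per Mb. All 9 lay below the level expected from the rest, 2 of them with an interval wholly below it. The densest of the 10 steps was the first and the sparsest the last. The change of level did not fall at 2 Mb: the step just inside, from 1.8 to 2 Mb, held 70 peaks (8.97 per Mb, 6.996 to 11.3), and the step just outside, from 2 to 2.2 Mb, held 60 (7.69 per Mb, 5.87 to 9.90). Beyond 2 Mb, 39 of the 40 steps to 10 Mb also lay below the level of the rest, and the highest, 16.3 per Mb, did not reach that of the outermost step. On q arms all 40 of these steps lay below the rest, and on p arms 27 of 40 did.

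**Figure D1:**
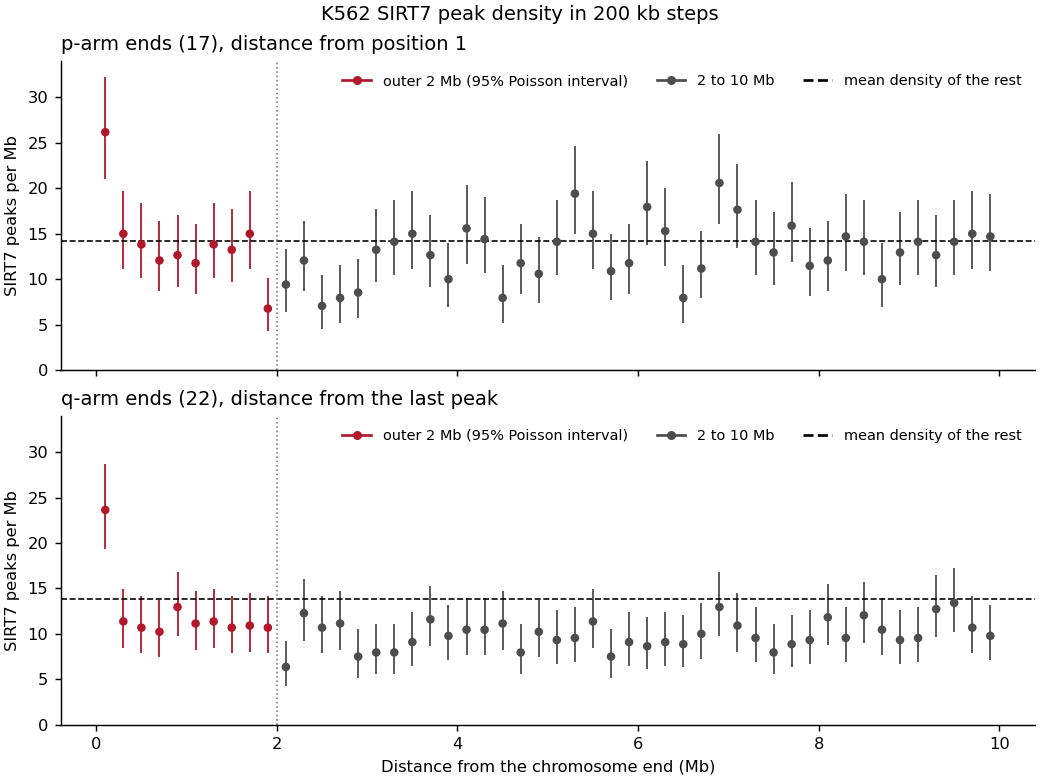
Density of K562 SIRT7 peaks (peaks per Mb, vertical axis) in 200 kb steps by distance from the chromosome end (Mb, horizontal axis) for 17 p-arm ends (top) and 22 q-arm ends (bottom). Points are densities with 95% Poisson intervals, red in the outer 2 Mb and grey from 2 to 10 Mb. The dashed line is the mean density of the rest, and the first step stands above it, at 26.2 and 23.6 per Mb.

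Part of the outermost excess followed from how the ends were set. A q-arm end is the last base of the last peak, so each q-arm end holds at least 1 peak near distance 0 by construction. Measured from the first and last peaks with these peaks left out, the outermost 200 kb held 166 peaks and the ratio to the rest was 1.52 (1.30 to 1.77). It was 1.74 (1.39 to 2.15) at p-arm ends, with 84 peaks, and 1.34 (1.07 to 1.67) at q-arm ends, with 82 peaks. Such a window still begins beside a peak, and the density of the rest was not measured from peaks, so these ratios are not like for like either. In finer steps of 20 kb beyond the terminal peak, the p-arm ends held 15 and 12 peaks in the first and second step and from 3 to 14 in the other 8. At q-arm ends the first 20 kb beyond the terminal peak held 10 peaks, and the highest of the 10 steps was the fourth with 15.

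The excess was spread over many ends. The outermost 200 kb was denser than the rest of its chromosome at 32 of 39 ends (82.1%), where 41.1% of the 13057 windows of 200 kb inside the chromosomes were denser than the rest of theirs. It reached 2-fold or more at 11 ends (28.2%), against 11.8% of those windows. With distances taken from the terminal peaks and these left out, the counts were 25 ends (64.1%) above the rest and 10 ends (25.6%) at 2-fold or more. These windows begin beside a peak, as do the 22 q-arm windows counted before, whereas the windows inside the chromosomes do not. Since 50.04% of the peaks of the rest had a neighbour within 10 kb, ends and windows inside are not like for like. The number of peaks in the outermost 200 kb ran from 0 to 13 with a median of 5, and in the windows inside the chromosomes from 0 to 23 with a median of 3. Windows that touched a gap of 2 Mb or more between peaks were not counted. A window with no peak was found at 1 end, the p arm of chromosome 3, and among 13.3% of the windows inside. Only the 17 p-arm windows could be empty, since each q-arm end is set by its last peak, so these shares are not like for like.

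**Figure D2:**
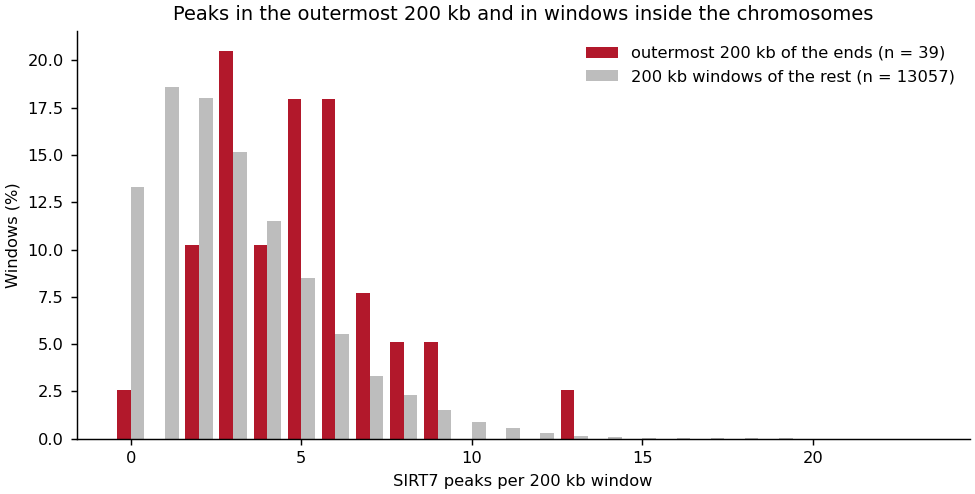
Share of windows (%, vertical axis) by number of SIRT7 peaks per 200 kb window (horizontal axis) for the outermost windows of the 39 ends (red) and 13057 windows of the rest (grey). The red bars lie further right, with medians of 5 and 3 peaks.

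Of the single ends, the p arm of chromosome 9 had the most peaks in its outermost 200 kb. It held 13 there, 4.87 times the density of the rest of chromosome 9, and 4 in the next 200 kb. By number, the p arms of chromosomes 8 and 12 followed with 9 peaks each. By ratio, the p arm of chromosome 17 came second with 6 peaks and 3.43, on an otherwise sparse chromosome, and the q arm of chromosome 22 came next with 6 peaks and 3.13. Without chromosome 9 the ratio for the outermost 200 kb of the other ends was 1.68 (1.44 to 1.95).

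Over the whole 2 Mb the ends differed widely from each other. Peaks per end ran from 8 to 62 with a median of 24, and the variance was 5.80 times the mean, against 4.73 times for the windows of 2 Mb inside the chromosomes. Of the 39 ends, 22 (56.4%) were below the rest of their own chromosome, close to the 50.5% of the 1280 windows of 2 Mb inside the chromosomes. At 0.5 times the rest or less stood 6 ends (15.4%), against 7.81% of those windows. An interval wholly below the rest was found at 9 ends (23.1%), against 15.4% of those windows, and one wholly above it at 2 ends (5.13%), against 15.5%. The end densities followed those of the rest of their chromosomes (Spearman's rho 0.563 and Pearson's r 0.574 across the 39 ends, of which pairs share a chromosome).

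The highest ratio belonged to the q arm of chromosome 1, with 62 peaks and a density of 31.0 per Mb (23.8 to 39.7), where the rest of that chromosome had 15.2 per Mb, a ratio of 2.04 (1.57 to 2.62). As background, the end of this arm carries a cluster of olfactory receptor genes. Its peaks were not at the tip: the outermost 200 kb held 4, and the fifth and sixth steps, from 800 to 1200 kb, held 11 each. The p arm of chromosome 9 came second with 45 peaks and a ratio of 1.69 (1.23 to 2.26), and it was dense at the tip and again from 1400 to 1600 kb, where it held 11. The q arm of chromosome 6 came next with 44 peaks and a ratio of 1.31 (0.9502 to 1.76), within counting error of the rest. It had 8 peaks in each of the steps from 1200 to 1600 kb.

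The lowest ratio was that of the q arm of chromosome 9, the opposite end of a chromosome whose p-arm end was among the densest. Its 10 peaks gave a density of 5.00 per Mb (2.40 to 9.20), where the rest had 13.3 per Mb, a ratio of 0.375 (0.180 to 0.689). Of those 10 peaks, 5 lay in the outermost 200 kb and 3 in the next. The p arm of chromosome 16 had 9 peaks and a ratio of 0.388 (0.178 to 0.737), and the q arm of chromosome 22 had 8 peaks and a ratio of 0.418 (0.180 to 0.823). On 22q the contrast between tip and interior was steepest: 6 of its 8 peaks lay in the outermost 200 kb, and the next lay 1697 kb further in, between midpoints. The q arm of chromosome 20 was alike, with 6 of 10 peaks in the outermost 200 kb. Low ends could thus still have a dense tip. The outermost 200 kb was above the rest at 32 of 39 ends and the remaining 1.8 Mb below it at 24, and both held at 19. These counts include the last peaks of the q arms. The 19 was not set against the number that the 32 and the 24 alone would give, so it shows no link between the zones.

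The opposite ends of a chromosome did not go together. Among the 17 chromosomes with a p-arm and a q-arm end, both were below the rest in 4 and both above in 3. The ratios of the p-arm and q-arm ends had a Spearman's rho of -0.407 and a Pearson's r of -0.364, as a description of 17 chromosomes. Nor did the ratio of the outermost 200 kb follow that of the remaining 1.8 Mb across the 39 ends (rho -0.0281, r -0.0350).

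**Figure D3:**
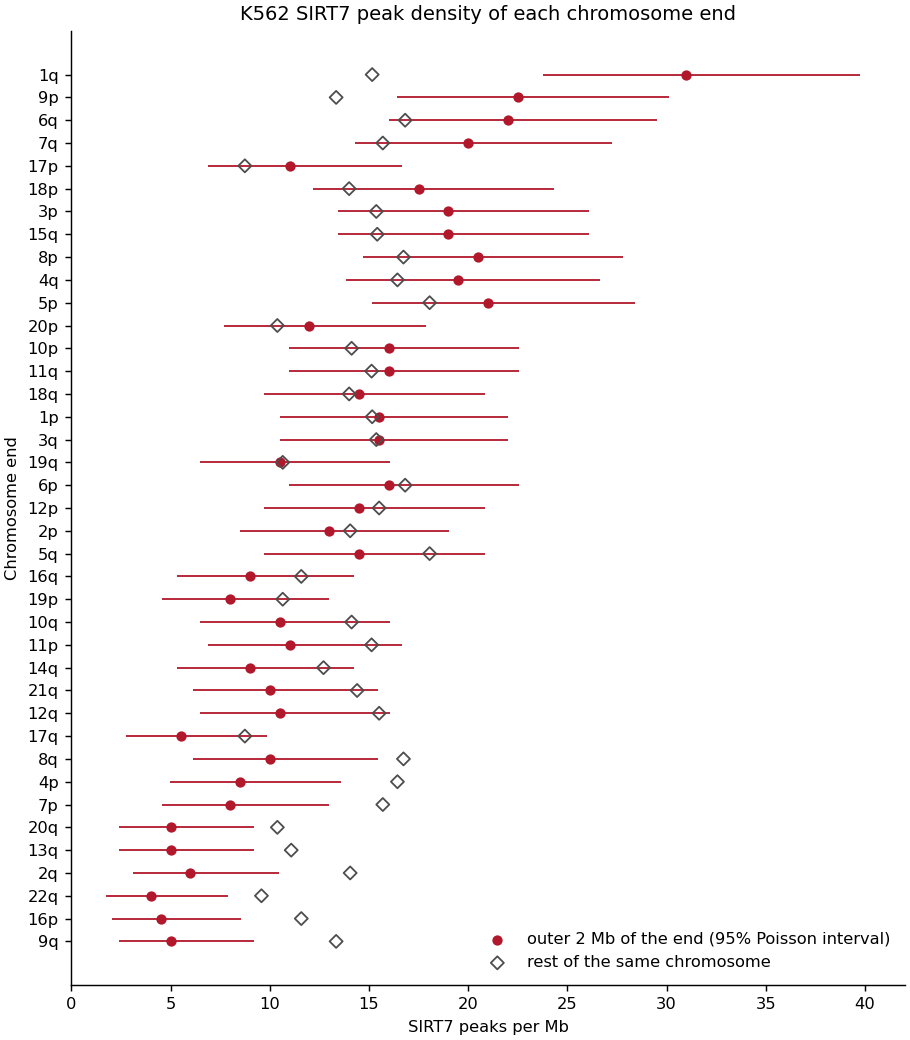
Density of SIRT7 peaks (peaks per Mb, horizontal axis) in the outer 2 Mb of each of 39 chromosome ends (vertical axis), ordered by ratio to the rest. Red points with 95% Poisson intervals are the ends and open diamonds the rest of the same chromosome. The q arm of chromosome 1 stands highest at 31.0 per Mb, and 9 ends (23.1%) have an interval wholly below their diamond, as do 15.4% of the 2 Mb windows inside the chromosomes.

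The peaks of the outermost 200 kb were wider than other peaks and, as a pool, had a lower median score. Their median width was 844 bp (731 to 1005), against 547 bp (517 to 584) from 0.2 to 2 Mb and 542 bp (539 to 546) in the rest. Peaks wider than 2 kb made up 16.1% (11.2 to 22.02) of the outermost peaks and 6.04% (4.51 to 7.88) of the peaks from 0.2 to 2 Mb, where the rest had 5.36%. The outermost median was above that of the rest in 18 of 22 chromosomes. At p-arm ends it was 1019 bp (830 to 1223) and at q-arm ends 708.5 bp (538 to 849), and with the first and last peaks left out it was 811 bp. Peaks covered 2.93% of the outermost 200 kb, 0.915% of the zone from 0.2 to 2 Mb and 1.15% of the rest.

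The score is the value that the authors' peak caller gave each peak, and it is higher for a stronger excess of reads. The median score was 78.3 (72.5 to 90.4) in the outermost 200 kb, 99.2 (91.2 to 110) from 0.2 to 2 Mb and 93.1 (91.9 to 94.3) in the rest. Chromosome by chromosome the outermost median score was below that of the rest in 13 of 22. A score of at least 100 was reached by 36.8% (29.98 to 44.01) of the outermost peaks and 49.6% (46.2 to 53.1) of the peaks from 0.2 to 2 Mb, where the rest had 47.2%. In the rest the median score rose from each width class to the next, whereas in the outermost 200 kb the classes above 500 bp all had medians between 80.8 and 97.8. Peaks of 1000 to 2000 bp had a median score of 80.8 (67.2 to 106) in the outermost 200 kb, from 52 peaks, against 192 (188 to 198) in the rest. For peaks over 2000 bp the medians were 97.8 (60.4 to 190) from 31 outermost peaks and 278 (271 to 286) in the rest. For peaks of at most 500 bp they were 65.5 (59.8 to 74.5) and 63.7 (63.3 to 64.0), which did not differ beyond counting error. Between 0.2 and 2 Mb the medians of the classes of 1000 to 2000 bp and over 2000 bp were 254 (190 to 281) and 274 (207 to 356).

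**Figure D4:**
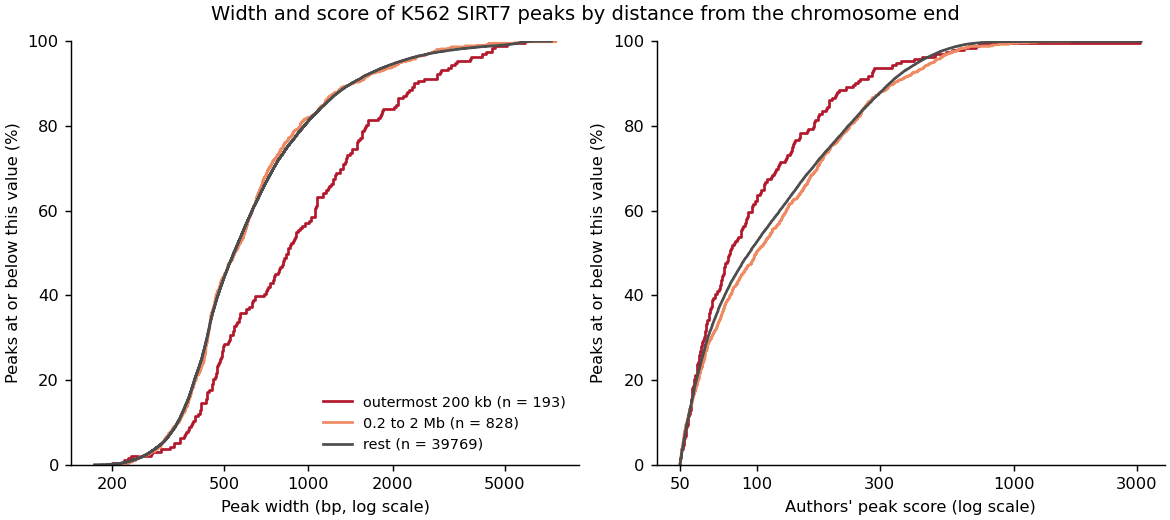
Cumulative share of peaks (%, vertical axes) by width (bp, log scale, left) and by the authors' score (log scale, right) for the outermost 200 kb (193 peaks, red), 0.2 to 2 Mb (828 peaks, orange) and the rest (39769 peaks, grey). The red curve lies to the right for width (median 844 bp against 542 bp in the rest) and to the left for score (78.3 against 93.1).

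The excess at the tips was smaller among the higher scores. Among peaks with a score of at least 100, the outermost 200 kb held 71 and its ratio to the rest was 1.40 (1.09 to 1.77). The zone from 0.2 to 2 Mb then had a ratio of 0.902 (0.816 to 0.993).

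Peaks near the ends also stood apart from each other more often than peaks elsewhere, except at the tips. A neighbour within 10 kb was found for 45.0% (41.9 to 48.1) of the peaks in the outer 2 Mb, against 50.04% (49.6 to 50.5) of the rest. The share was 54.4% (47.1 to 61.6) in the outermost 200 kb and 42.8% (39.4 to 46.2) from 0.2 to 2 Mb. It depends on density, which differed between these zones in the same order. Neighbouring pairs whose widths and gap exactly equalled those of another pair, read in either direction, occurred for 0 of the 1021 peaks at the ends and for 45 of the 39769 peaks of the rest.

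**Figure D5:**
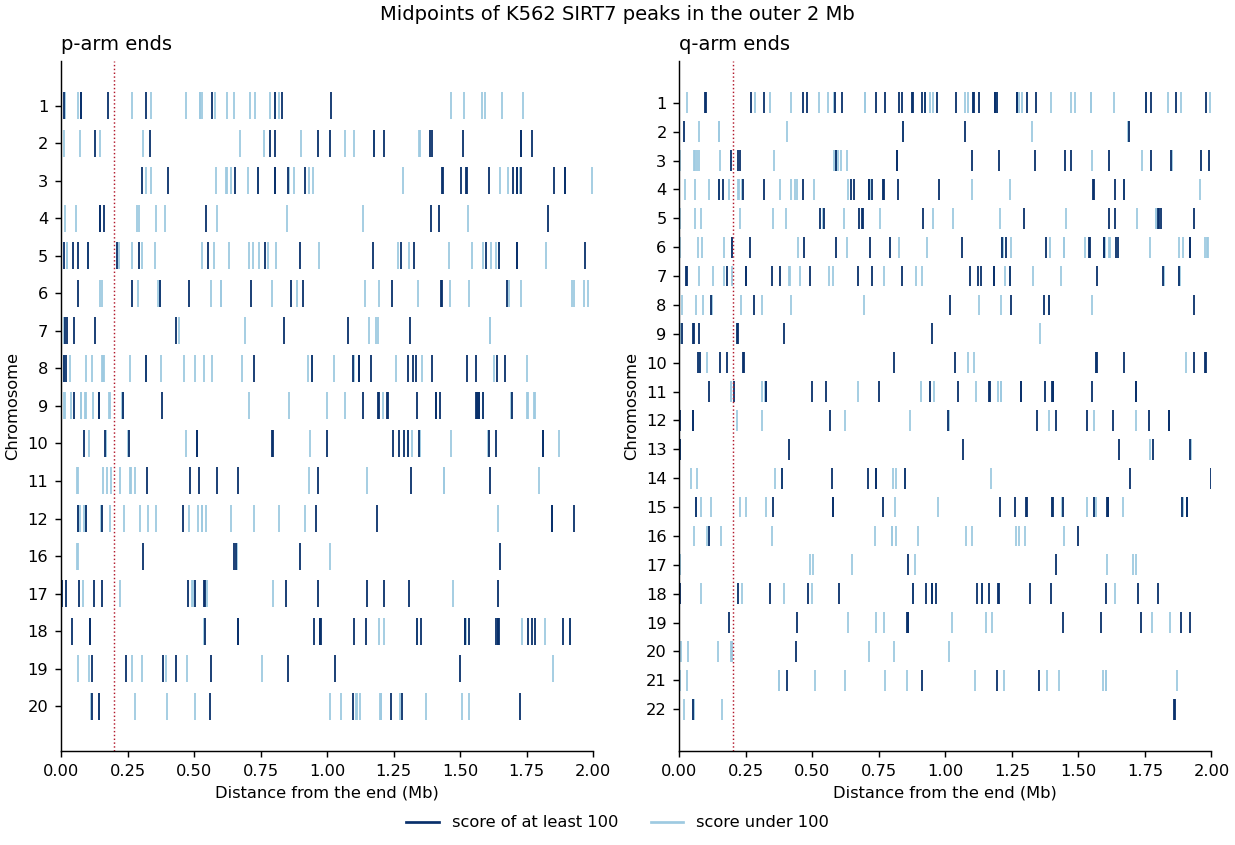
Midpoints of the 1021 peaks in the outer 2 Mb by distance from the end (Mb, horizontal axes) for each p-arm (left) and q-arm end (right), with chromosomes on the vertical axes. Dark lines are peaks with a score of at least 100, light lines those under 100, and the dotted line marks 0.2 Mb. The p arm of chromosome 9 has 13 peaks left of it, and the q arm of chromosome 22 is empty over 1697 kb.

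The first peaks of p arms began at varied distances from position 1. Their start ran from position 3883 on chromosome 17 to 303437 on chromosome 3, with a median of 40954. On 8 of 17 p arms the first peak began within 20 kb of position 1, and on 5 others it began between 60 and 65 kb. In all, 14 peaks on 8 chromosomes began within 20 kb of position 1, with a median score of 91.5, and 7 of them had a score of at least 100. This was close to the level of all end peaks, whose median score was 95.2 and of which 47.2% reached 100. The strongest, at 10001 to 11832 of chromosome 5, scored 3100.0. A peak of almost the same position and width on chromosome 8, from 10009 to 11856, scored 102. On chromosome 17 a peak from 3883 to 4264 scored 236 and one from 16433 to 18518 scored 733.

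On chromosome 7 a narrow peak from 10274 to 11084 (score 63.9) was followed by a broad one from 11721 to 16337 (score 140). On chromosome 8 the first peak was followed by others from 11869 to 12991 (65.0) and from 19542 to 20600 (118). Chromosomes 1 and 9 each began with a pair of like layout, from 11371 to 12444 and 13188 to 14714 on chromosome 1 (106 and 55.0) and from 11539 to 12557 and 13009 to 14560 on chromosome 9 (55.3 and 68.8). The first peaks of chromosome 2 (12771 to 13239, score 80.9) and chromosome 4 (15367 to 15866, score 62.5) were the only ones within 20 kb there. At the other end, the last peaks of the 22 q arms scored from 53.9 to 136 with a median of 73.8, where the lowest score of the list was 50.0 and its median 96.0.

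Of the 10 highest scores near the ends, 7 were on p arms and 3 on q arms, where 477 of all 1021 end peaks lay on p arms. The p arms were not stronger as a whole: a score of at least 100 was reached by 46.1% of their end peaks and by 48.2% on q arms. The peak on chromosome 5 from 10001 was the only 1 of the 10 within 200 kb of an end, where 18.9% of all the end peaks lay. After it came a peak on 11p at 584984 to 585924 (score 1655), then peaks on 6p at 861934 to 863785 (1225), on 20p at 1282284 to 1283477 (1133) and on 18p at 1911476 to 1911891 (1035). Next were peaks on 6q at 170707260 to 170709666 (964), on 1p at 564253 to 571876 (952) and on 4q at 190718341 to 190720279 (873). The last of the 10 were on 7p at 1311682 to 1312747 (826) and on 3q at 196625577 to 196625866 (824). The peak on 1p was also the widest near an end, at 7624 bp, and it lies in a stretch known to hold a nuclear copy of mitochondrial DNA.

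The widest peaks ranged from faint to strong. The 10 widest ran from 7624 down to 4403 bp, 5 of them within 200 kb of an end. Among all end peaks 47.2% had a score of at least 100, and 4 of the 10 widest had a score under 100. These faint ones were the last peaks of chromosome 21 (48111380 to 48117312, 5933 bp, score 60.4) and chromosome 9 (141128008 to 141132521, 4514 bp, 56.6), a peak on 16q (90188966 to 90193479, 4514 bp, 54.2) and a peak on 11p (154240 to 159335, 5096 bp, 50.2). All 4 lay in the outermost 200 kb, as did a peak on 7p (11721 to 16337, 4617 bp), which scored 140. The 5 of the 10 that lay outside the outermost 200 kb scored from 207 to 952. Beside the peak on 1p they were peaks on 1q at 247850738 to 247856484 (207), on 2p at 799874 to 805541 (279), on 4q at 190058842 to 190064265 (251) and on 18p at 537278 to 541680 (327).

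The chromosome ends were set beside other edges, the 19 autosomal gaps of 2 Mb or more between neighbouring peaks. With the border peaks left out on each side, the ratio of the first 200 kb to the rest was 1.52 (1.30 to 1.77) at the chromosome ends, below the 2.99 (2.67 to 3.34) beside the gaps. The densities were 21.3 per Mb at the ends, from 166 peaks, and 41.8 per Mb beside the gaps, from 318 peaks. Peaks at the chromosome ends were wider, with a median of 811 bp against 630 bp beside the gaps, and the median scores were 77.6 at the ends and 80.1 beside the gaps. In MEFs, whose chromosomes have their centromere at the other end, the distal 200 kb of 19 autosomes on build mm9 held 226 SIRT7 peaks. This was 59.5 per Mb (51.97 to 67.8) and 2.23 times (1.94 to 2.53) the rest, or 2.04 times (1.77 to 2.34) with the last peaks left out. From 0.2 to 2 Mb the MEF peaks were at the level of the rest (ratio 1.03, 0.964 to 1.10). The distal MEF peaks were not wider than the rest: their median width was 963 bp against 978 bp. The species and the peak lists differ, depth is known for neither, and the difference was not tested.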

How the data were processed

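ChIP-seq for SIRT7 was made in K562 cells and MEFs. Nuclear extracts of cells fixed in 1% formaldehyde (10 minutes) were sonicated to 150 to 300 bp, per the labels' protocols. The submitters' processing notes name the peak caller MACS 1.4.2, the aligner Bowtie and the builds hg19 and mm9. How multiply mapping reads were treated, which control was used and whether replicates were pooled is not given in the sources used here. The deposited lists give each peak's position and a score assigned by the authors' peak caller, used only within a list.

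Positions count from 1. Expected numbers come from the density of the rest of each chromosome, the span between its end windows (on acrocentric chromosomes, from the first peak). Densities and ratios carry exact Poisson intervals, ratios of 2 zones exact conditional ones, shares Clopper-Pearson and medians order-statistic intervals. The calculation of the ratios was run on simulated peaks placed independently with set ratios. That checks the calculation only. The real peaks were spread less evenly than independent ones, with a variance of 4.73 times the mean for windows of 2 Mb inside the chromosomes. Of those windows, 15.4% had an interval wholly below the rest and 15.5% one wholly above it. The intervals are thus too narrow for variation between places, and counting error is all that they cover. Calculations ran in Python 3.11.15 with scipy 1.17.1, pandas 2.3.3 and numpy 2.4.6. Members, settings and comparisons were chosen with earlier results of these data known. Named were the 10 highest scores, the 10 widest peaks, peaks that begin within 20 kb of position 1, the 3 highest and 3 lowest ends, and ends without a peak in the outermost 200 kb. The ends 17p and 20q, the last peaks and the fullest outermost windows were named after their values were seen, and the zone from 0.2 to 2 Mb and the widths and scores of the outermost 200 kb were added then too. No peak was left out of the list.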

Additional observations from a re-analysis of the deposited data

How the results depend on the processing

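The lower density of the whole end window depended on its length. Its ratio to the rest was 1.05 with a window of 1 Mb, so that the direction turned, and 0.807 with 5 Mb (the outermost 200 kb is a larger share of the shorter window, and the steps from 2 to 5 Mb were also sparse). With 1 Mb and 5 Mb it was 1.12 and 0.863 at p-arm ends and 0.997 and 0.763 at q-arm ends, and peaks covered 1.39% and 0.896% of the windows. The outermost 200 kb stayed above the rest under each alternative run, with ratios of 1.44 for scores at or above the list median, 1.40 for scores of at least 100 and 1.52 from the terminal peaks. The zone from 0.2 to 2 Mb had ratios of 0.912 (0.828 to 1.003) and 0.902 (0.816 to 0.993) with those score limits, so that at or above the median score it no longer differed from the rest beyond counting error. For all ends that was so with both score limits, 0.965 (0.882 to 1.05) and 0.952 (0.868 to 1.04), with merged peaks, 0.944 (0.883 to 1.01), and without any of 6 of the 22 chromosomes. For q-arm ends it was so with both score limits, 0.923 (0.816 to 1.04) and 0.931 (0.821 to 1.05), and with 1 Mb. Leaving out 1 chromosome gave from 0.898 (without chromosome 1) to 0.949 (without chromosome 16) for all ends and from 1.68 to 1.80 for the outermost 200 kb. The median width of the end peaks was 737.5 bp and 746 bp with the score limits, 608.5 bp with peaks closer than 1 kb merged and 533 bp with 5 Mb, and the median score was 84.0 with 1 Mb. A neighbour was found for 36.6% of end peaks within 5 kb (41.5% of the rest), 58.2% within 20 kb (62.7%), 24.4% after merging (29.2%) and 35.7% with scores at or above the median (42.3%), and such peaks covered 0.679% of the windows. The remaining alternatives, which include pooled densities, gaps between peaks taken out of the span and recurring pairs left out, kept each value within the counting interval of the value reported. Merging gave 1.17% of the windows covered, and the number of ends below their rest ran from 20 to 31. Pooled densities give no such number. No paired analysis was possible because the K562 SIRT7 samples are represented by a single list. Depth is unknown, which limits what is said of number, width and score, and SIRT7 may be present where no peak was called.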

Other observations

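The X chromosome, which was not among the 39 ends, had unlike ends in the K562 list. The outer 2 Mb of its p arm held 11 peaks, 0.274 times (0.137 to 0.491) the density of the rest of X, and its outermost 200 kb held 2. The outer 2 Mb of its q arm held 55 peaks, 1.37 times (1.03 to 1.78) the rest, with 8 in the outermost 200 kb.

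Among the 83 outermost peaks of at least 1 kb, 7 pairs had exactly the same width, where pairs that differed by 1 to 5 bases numbered 4.40 per base of difference. Differences were counted in either direction, whereas equal widths arise in a single way. The 4.40 is therefore higher than a like level for equal widths, and no interval was made for the 7. Each pair joined different chromosome ends, as most pairs of peaks spread over so many ends would, whatever their widths. The widest joined the last peak of chromosome 9 with a peak 103 kb from the end of 16q, both 4514 bp wide and with scores of 56.6 and 54.2. The others included the first peak of chromosome 1 with the last of chromosome 15 (1074 bp), and the first peaks of chromosomes 9 and 16 (1019 bp). This measure was chosen after the widths were seen.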
